A study of Homo sapiens with 12 samples.

Results

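The comparison described here set 12Z cells transfected with a pCAG plasmid carrying Viperin and treated with 100 nM insulin (Viperin + Insulin) against 12Z cells transfected with the empty vector and given the same insulin dose (Insulin). Its members were chosen by their treatment labels alone and are 6 of the 12 libraries of the series, 3 in each group. The other 6 libraries are the vehicle-treated counterparts, Viperin plasmid with vehicle (Viperin) and empty vector with vehicle (Control). 12Z is an immortalised line of human endometriotic epithelial cells, endometriosis being the growth of endometrium-like tissue outside the uterus. All cells were transiently transfected, serum starved, treated in serum-free medium and collected 24 h after insulin or vehicle was added, and the study's methods give 3 independent experiments per condition. The labels and methods name the empty vector as pCAG, while the treatment protocol of the same labels names a pBabe empty vector, so which backbone the Insulin and Control cells received cannot be settled here. Poly(A) RNA from whole cultures was sequenced, so a gene's level is an average over transfected and untransfected cells, and fewer cells expressing a gene and less RNA per cell cannot be told apart. The question the comparison addresses is whether raised Viperin changes gene expression in epithelial cells that are responding to insulin.

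Viperin, the product of RSAD2, is an interferon-induced enzyme of the radical S-adenosylmethionine family that sits on the endoplasmic reticulum and on lipid droplets and restricts the replication of many viruses, in part by converting CTP into a chain-terminating analogue. It binds several host proteins, among them the innate sensing proteins MAVS and IRAK1 and enzymes of sterol and fatty acid metabolism. Insulin acts on the insulin and IGF receptors and, through PI3K, AKT and mTOR, promotes uptake of nutrients and synthesis of lipid and protein in most cells.

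The Viperin + Insulin libraries held 32543485 to 46889002 read pairs assigned to genes, and the Insulin libraries held 35511725 to 37109611. Mitochondrially encoded genes took 4.28% to 4.52% of the assigned pairs in Viperin + Insulin and 5.14% to 5.18% in Insulin, and multimapping pairs made up 10.4% to 11% of the pairs in Viperin + Insulin and 9.6% to 9.94% in Insulin. The groups did not overlap in either share. An alternative given below computed library sizes without RSAD2 and the mitochondrial transcripts. The part these shares play in the results was not otherwise tested. Of the epithelial markers, the keratins KRT8 (1332, 1328 and 1280.3 CPM in Viperin + Insulin, 1327, 1429 and 1341 CPM in Insulin) and KRT19 were abundant, whereas CDH1, the E-cadherin of epithelial junctions, stayed between 0.900 and 2.0 CPM and EPCAM between 0.301 and 0.828 CPM in the 6 libraries. None of the 21 epithelial markers measured passed an adjusted p of 0.05 in edgeR or DESeq2, 1 did in limma-voom, and 4 were higher and 1 lower at an unadjusted p under 0.05. The immune markers summed to 6.71 to 7.07 CPM in Viperin + Insulin and 5.94 to 6.87 CPM in Insulin, with CD3E, CD2 and ITGAM below the count minimum.

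RSAD2 (ENSG ID ENSG00000134321.12, chr2:6865557-6898239 of hg38, plus strand) checked the labels. Its level in CPM, the library-scaled read count with TMM factors, was 476, 462 and 609 in the Viperin + Insulin libraries and 3.01, 3.82 and 5.19 in the Insulin libraries. Every Viperin + Insulin library therefore lay far above every Insulin library, with a log2 fold change of 6.99 (SE 0.31, adjusted p = 1.08e-05, edgeR). The reads of the plasmid and of the chromosomal gene cannot be told apart in these counts. RSAD2 also had 50, 36 and 90 counts on the opposite strand in Viperin + Insulin and 0 in each Insulin library. CMPK2, the neighbouring gene that interferon induces together with RSAD2 and that encodes a mitochondrial nucleotide kinase, stood at 0.394, 0.637 and 0.892 CPM in Viperin + Insulin and 0.520, 0.954 and 1.05 CPM in Insulin, with overlapping groups (adjusted p = 0.681).

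The largest fall with an adjusted p under 0.05 was that of HBB, which encodes the β chain of adult haemoglobin. It had 2, 4 and 9 counts in the Viperin + Insulin libraries, against 122, 88 and 62 counts in the Insulin libraries (log2 fold change -3.80, SE 0.36, adjusted p = 1.74e-07). HBD, its closest relative, had 2, 1 and 4 counts in Viperin + Insulin and 17, 14 and 6 in Insulin (adjusted p = 0.021). The 2 genes are nearly identical over much of their length, and pairs that aligned to both were not counted. Whether pairs of either gene were placed on the other was not tested. The HBD call was lost in DESeq2 (adjusted p = 0.0607) and without Insulin replicate 1 (0.118) or 2 (0.12) or Viperin + Insulin replicate 1 (0.0945) or 2 (0.109). Of the other globin and red cell genes on the list only HBA2 passed the count minimum, at no more than 0.0818 CPM in any of the 6 libraries, and ALAS2 and AHSP did not reach it. Reads of the cells' own globin RNA and of any globin sequence in a plasmid preparation cannot be told apart in these counts, which are reads assigned to the 2 genes. HBB was low without insulin as well, with 1, 2 and 3 counts in Viperin and 59, 50 and 26 in Control (adjusted p = 1.03e-05).

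Beyond the plasmid's own gene, the differences were many and small. Of 23041 genes tested, 109 differed at an adjusted p under 0.001 (0.473% of those tested), 86 higher and 23 lower in Viperin + Insulin. Their median absolute log2 fold change was 0.26, a 1.2-fold change, and only RSAD2 and HBB changed more than 2-fold. Of the 109 genes, 106 are protein-coding. At an adjusted p under 0.05, 482 genes were higher (2.09%) and 228 lower (0.99%), and the median over all genes was 0.0047 on the log2 scale. The 3 Viperin + Insulin libraries all lay above the 3 Insulin libraries for 11.8% of genes and all below for 9.88%, and they did so for each of the 109. The count at 0.001 depended on single libraries: it was 36, 30 and 63 without Viperin + Insulin replicate 1, 2 or 3, and 136, 30 and 33 without Insulin replicate 1, 2 or 3. A fit to the 6 compared libraries alone gave 587 genes, 327 of them higher. With the trend on GC content and length removed, 46% of the genes passing 0.05 were higher, against 67.9% in the fit as designed, and 58.2% were when library sizes were computed without RSAD2 and the mitochondrial transcripts, so the balance of higher and lower calls depended on the scaling. At 0.001 the share higher was 78.9% in the fit as designed, 61.8% with the GC and length trend removed and 66.4% in DESeq2. Of the 109 genes, 107 passed 0.05 whichever of the 6 libraries was left out, and 19 passed 0.001 each time. The exceptions at 0.05 were TNC and TUB.

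**Figure D1:**
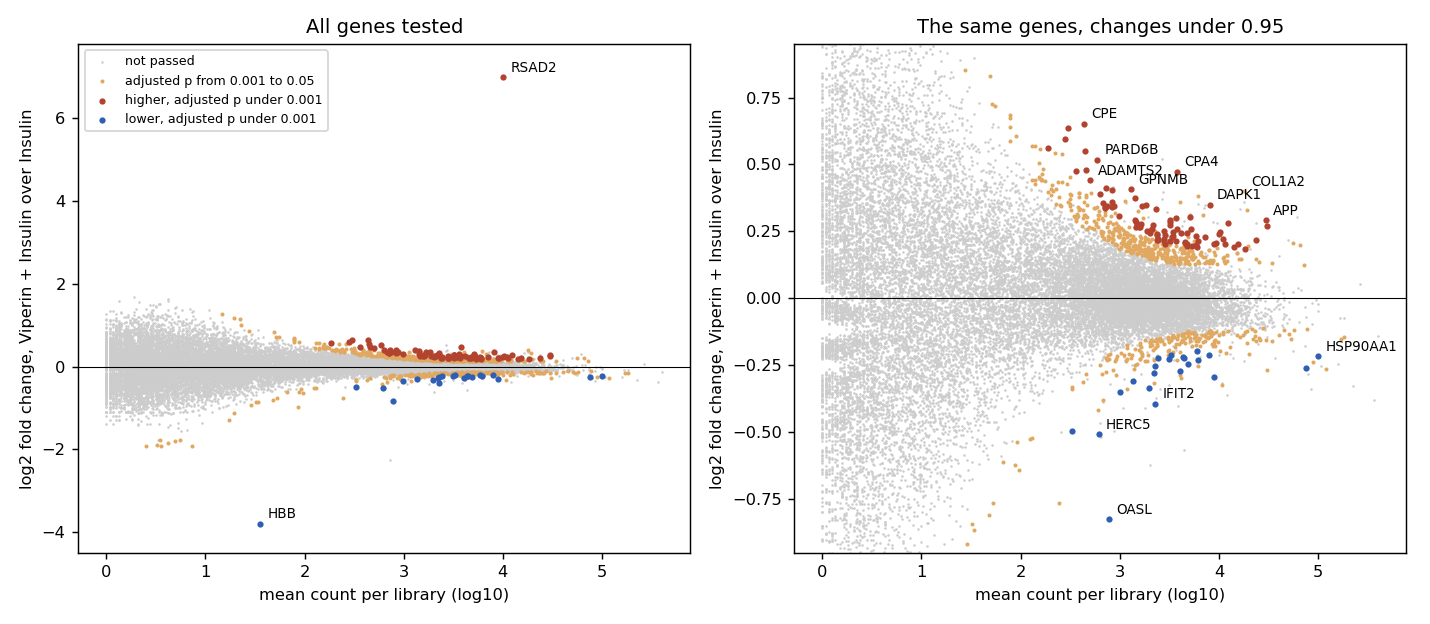
Log2 fold change of Viperin + Insulin over Insulin for each gene tested, against the log10 of its mean count per library; the left panel spans all changes and the right panel those under 0.95. RSAD2 at 6.99 and HBB at -3.80 stand apart on the left, while on the right the genes passing 0.001 lie mostly between 0.2 and 0.6 in size on either side of 0.

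APP, the amyloid precursor protein, gave the smallest p of all genes: its level was 897, 909 and 895 CPM in Viperin + Insulin and 765, 714 and 727 CPM in Insulin (log2 fold change 0.29, SE 0.035, adjusted p = 3.48e-08). The gap between the groups was wider than the spread within either. DAPK1, a calcium/calmodulin-regulated kinase of cell death signalling, had 247, 247 and 238 CPM in Viperin + Insulin and 201, 183 and 190.2 CPM in Insulin (0.35, SE 0.04, adjusted p = 3.48e-08). PKD2, the calcium-permeable channel polycystin-2, rose by 0.30, and ATP1B1, the β1 subunit of the sodium pump, by 0.30 on the log2 scale. PARD6B, a scaffold of the apical polarity complex, had 19.3, 19.4 and 20.0 CPM in Viperin + Insulin and 13.9, 13.9 and 13.2 CPM in Insulin.

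The carboxypeptidases CPE and CPA4 were among the 15 higher genes of smallest p. CPE, carboxypeptidase E, which trims the ends of prohormones including proinsulin, had 14.7, 14.2 and 14.9 CPM in Viperin + Insulin against 8.46, 9.13 and 10.3 CPM in Insulin, the largest log2 fold change of those 15 (0.65, SE 0.081, adjusted p = 8.6e-08). CPA4, a secreted carboxypeptidase, had 131, 134 and 128 CPM in Viperin + Insulin and 97.1, 92.3 and 93.4 CPM in Insulin (0.47, adjusted p = 8.91e-08). For both genes the lowest Viperin + Insulin library exceeded the highest Insulin library, as the rule that named those 15 genes required. ETS1, a transcription factor, WSB1, a subunit of a ubiquitin ligase, and ARGLU1, a coactivator that also acts in splicing, rose by 0.29, 0.34 and 0.33 on the log2 scale. Among genes with a mean of at least 50 counts that passed 0.05, the largest rises after RSAD2 were in transcripts near or below 3 CPM. They were RTEL1-TNFRSF6B, a readthrough of 2 neighbouring genes, an unnamed gene, JAG2, which encodes a Notch ligand, and COPG2IT1, at 0.72, 0.72, 0.69 and 0.67. JAG2 had 2.44, 2.88 and 2.63 CPM in Viperin + Insulin and 1.31, 1.58 and 1.99 CPM in Insulin, and lost its call without Insulin replicate 1 (0.0902), Insulin replicate 2 (0.0728) or Viperin + Insulin replicate 2 (0.0791). The largest falls at that minimum were 2 unnamed genes, the interferon-stimulated OASL described below, FTH1P10, a pseudogene nearly identical to the ferritin gene FTH1 (-0.76), and ANXA10. ANXA10, an annexin that binds phospholipid in the presence of calcium, had 5.28, 5.98 and 5.99 CPM in Viperin + Insulin and 7.31, 12.9 and 9.22 CPM in Insulin (-0.76, adjusted p = 0.00769), without overlap, and lost its call without Viperin + Insulin replicate 1 (0.0529) and in the fit to the 6 libraries alone (0.057).

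Genes of the extracellular matrix, the protein network that cells secrete around themselves, gave more higher members than any other list. Of 54 matrix glycoproteins and proteoglycans measured, 16 were higher at an adjusted p under 0.05 and 0 lower (29.6% higher, against 2.09% of all genes; 30 higher and 2 lower at an unadjusted p under 0.05, and 0 lower in DESeq2 and limma-voom as well), with a list median of 0.20 on the log2 scale against 0.0047 for all genes. FBN1, which encodes the microfibril protein fibrillin-1, had 293, 301 and 307 CPM in Viperin + Insulin and 266, 242 and 253 CPM in Insulin (0.24, SE 0.036, adjusted p = 6.17e-06). The laminin chains of basement membranes rose in 4 genes, LAMB1, LAMB2, LAMA3 and LAMC1. LAMA3, a chain of the epithelial laminin, had 19, 18.8 and 19.6 CPM in Viperin + Insulin and 15.8, 13.9 and 14.1 CPM in Insulin (0.39, adjusted p = 0.000149), and LAMB1, a more abundant chain, had 272, 276 and 277 CPM in Viperin + Insulin and 239.9, 240.2 and 235 CPM in Insulin (0.21, adjusted p = 8.32e-05). FBLN2, which links elastic fibres to basement membrane, had 197, 206 and 193 CPM in Viperin + Insulin and 149.6, 151 and 156 CPM in Insulin (0.38, adjusted p = 0.00155). SPARC, a collagen-binding matricellular protein and among the most abundant transcripts of the list, had 2109.6, 2233 and 2166 CPM in Viperin + Insulin and 1852, 1899 and 1914 CPM in Insulin (0.20, adjusted p = 0.00285). The 54 genes summed to 9151 to 9500.4 CPM in Viperin + Insulin and 8080.3 to 8169 CPM in Insulin. The number of higher members was 12 to 16 over the 6 fits that each left out 1 library and 27 in the fit to the 6 libraries alone. The list's genes are long, with a median length of 4951 bases against 3540 over the 15702 genes with a mean of 10 or more counts, and 13 stayed higher with the trend on GC content and length removed.

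Collagens followed the same direction. Of 30 measured, 7 were higher and 0 lower (23.3% higher, list median 0.21), and at an unadjusted p under 0.05 13 were higher and 0 lower. The called chains were COL4A1, COL4A5 and COL4A6 of basement membrane, COL18A1, the source of endostatin, the fibril-forming COL1A2 and COL3A1, and COL8A2. COL4A5 had 93.8, 92.7 and 93.7 CPM in Viperin + Insulin and 75.2, 78.2 and 75.5 CPM in Insulin (0.29, SE 0.041, adjusted p = 1.51e-06). COL3A1 had 1659, 1728 and 1688 CPM in Viperin + Insulin and 1407, 1513 and 1474 CPM in Insulin (0.21, adjusted p = 0.00292). In both genes every Viperin + Insulin library was above every Insulin library. COL1A2 showed a larger change (577, 600.4 and 558 CPM in Viperin + Insulin, 459, 427 and 429 CPM in Insulin, 0.40, SE 0.071) with a weaker test (adjusted p = 0.0148), and its call was lost without Viperin + Insulin replicate 1 (0.0554), Insulin replicate 2 (0.0762) or Insulin replicate 3 (0.0564). COL4A6 lost its call without Viperin + Insulin replicate 3 (0.0553). P4HA2, a prolyl hydroxylase that modifies collagen chains, rose by 0.22 (adjusted p = 0.000348).

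**Figure D2:**
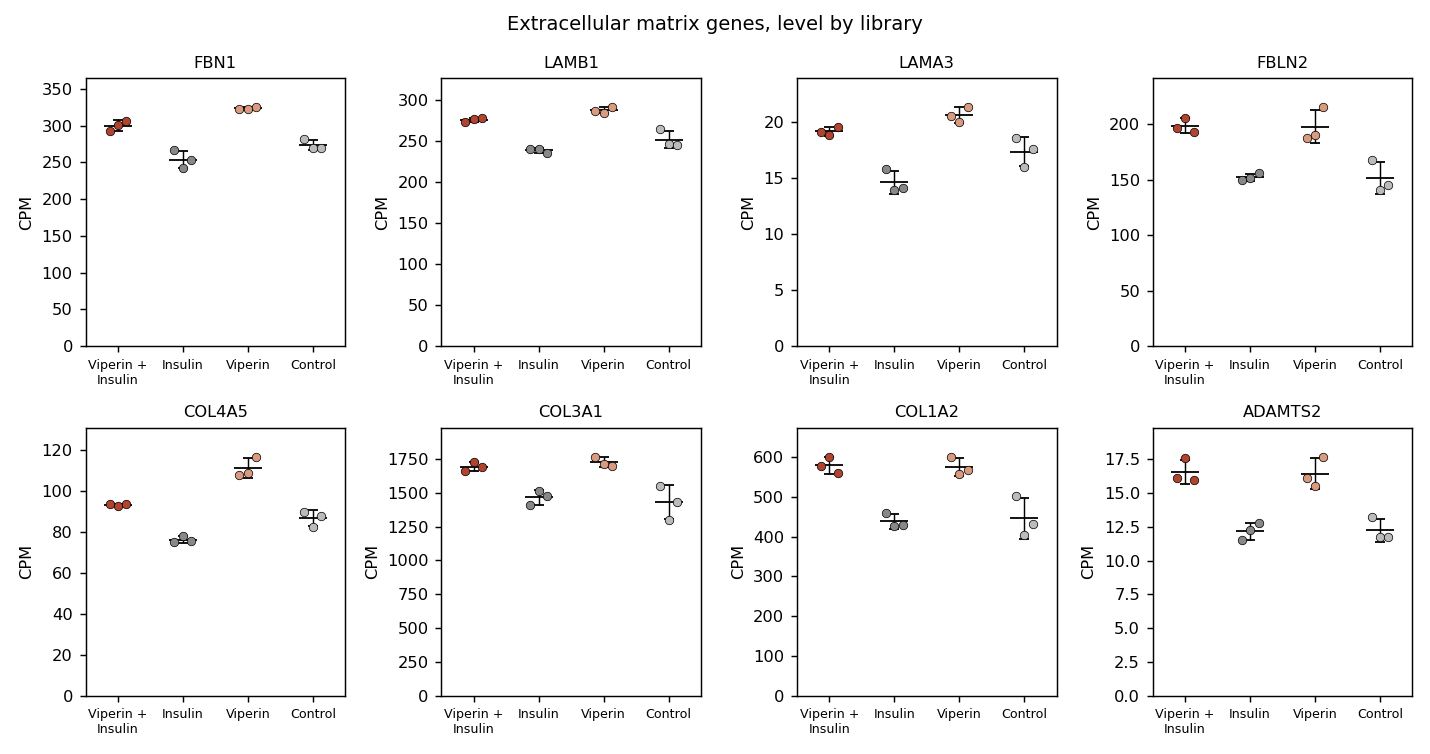
Level in CPM (vertical axis, from 0) of 8 extracellular matrix genes in each library of the 4 groups; points are libraries, and the bar and whiskers are the mean and SD of 3. In each panel the 3 Viperin + Insulin points lie above the 3 Insulin points, and the Viperin points lie above the Control points.

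Of 46 matrix proteases and inhibitors, 6 were higher and 0 lower (13% higher), with 16 higher and 5 lower at an unadjusted p under 0.05 and 1 lower in limma-voom. ADAMTS2, which removes the N-propeptide of procollagens, had 16.1, 17.6 and 16 CPM in Viperin + Insulin and 11.5, 12.2 and 12.8 CPM in Insulin (0.44, SE 0.076, adjusted p = 8.04e-05), and ADAM12, a membrane-bound metalloprotease, rose by 0.20. The others were ADAMTS12, LOXL2, ADAM9 and ADAM17. This count fell to 2 when any of the 3 Viperin + Insulin libraries was left out and to 3 without Insulin replicate 1, where 5 members were called lower. Among integrin and focal adhesion genes 3 of 39 were higher (7.69%): L1CAM, a neural-type adhesion molecule (0.23, adjusted p = 4.92e-05), ITGB1, the common β1 integrin (0.13, 0.0106), and ITGA7 (0.30, 0.0114). The calls of ITGB1 and ITGA7 were both lost without Insulin replicate 2 (0.0752 and 0.092), that of ITGB1 also without Insulin replicate 3 (0.0562) or Viperin + Insulin replicate 2 (0.093) or 3 (0.0971), and that of ITGA7 without Viperin + Insulin replicate 1 (0.0936). PDGFRB, a growth factor receptor of stromal cells, rose by 0.26 (adjusted p = 0.000103), while NT5E, the surface nucleotidase CD73, fell by 0.28 (0.000163). VIM, the intermediate filament vimentin, had 1411, 1440.4 and 1391 CPM in Viperin + Insulin and 1506, 1621 and 1588 CPM in Insulin (adjusted p = 0.0151), a call that was lost with unstranded counts (0.0538) and without Insulin replicate 2 (0.151), Insulin replicate 3 (0.106) or Viperin + Insulin replicate 1 (0.0787) or 3 (0.0813). Mesenchymal and stromal markers as a list had 3 higher and 2 lower of 20, and summed to 2459 to 2517 CPM in Viperin + Insulin and 2520.3 to 2652 CPM in Insulin. Of 8 endothelial markers KDR was called higher in edgeR and none in DESeq2 or limma-voom, and the list summed to 13.5 to 14.2 CPM in Viperin + Insulin and 10.5 to 11.6 CPM in Insulin. The part that other cell types play in the matrix genes was not tested.

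Lysosomal genes were also higher, 8 of 54 and 0 lower (14.8%, list median 0.08), with 19 higher and 3 lower at an unadjusted p under 0.05. GPNMB, a membrane glycoprotein of lysosomes and melanosomes, had 43, 43 and 43.2 CPM in Viperin + Insulin and 34.7, 32.2 and 30.4 CPM in Insulin (0.41, SE 0.053, adjusted p = 1.58e-07). PSAP, the precursor of the saposins that help degrade sphingolipids, had 909.9, 932 and 911 CPM in Viperin + Insulin and 773, 758 and 755 CPM in Insulin (0.27, adjusted p = 9.82e-06). The groups of both genes were clearly apart. The remaining called members were CTSZ, CTSF and CTSA, which are cathepsins, the hydrolases HEXA and TPP1, and ATP6AP2, an accessory subunit of the proton pump. The count fell to 3 without Viperin + Insulin replicate 1, to 5 without replicate 2 or 3 of that group, to 5 without Insulin replicate 2, to 4 without Insulin replicate 3 and to 5 in DESeq2. CTSF lost its call without Viperin + Insulin replicate 1 (0.0933) or Insulin replicate 3 (0.188), and ATP6AP2 without Viperin + Insulin replicate 1 (0.0684). None of 32 autophagy genes passed in edgeR or DESeq2 and 1 did in limma-voom, with 2 higher and 2 lower at an unadjusted p under 0.05.

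Interferon-stimulated genes were called in the lower direction. Of 60 measured, RSAD2 not among them, 4 were lower (6.67%, against 0.99% of all genes), HERC5, IFIT2, OASL and IFIT3, and 44 had a log2 fold change below 0, with a list median of -0.07. No member was higher in edgeR, DESeq2 or limma-voom, and 4 were higher and 12 lower at an unadjusted p under 0.05. OASL, an antiviral protein related to the oligoadenylate synthetases, fell furthest: its level was 14.3, 16.7 and 18.3 CPM in Viperin + Insulin and 27.3, 31.8 and 28.5 CPM in Insulin (-0.83, SE 0.099, adjusted p = 0.00016). HERC5, the ligase that attaches the ubiquitin-like ISG15 to proteins, had 13.3, 13.8 and 14.5 CPM in Viperin + Insulin and 19.7, 18.2 and 21.4 CPM in Insulin (-0.51, SE 0.072, adjusted p = 1.47e-06). The 2 groups did not overlap in either gene, and the lowest Insulin library of OASL was well above the highest Viperin + Insulin library. IFIT2 had 54, 56.8 and 57.5 CPM in Viperin + Insulin and 71, 71.3 and 79 CPM in Insulin (-0.39, adjusted p = 4.2e-06), and IFIT3 had 95.9, 111 and 109 CPM in Viperin + Insulin and 125, 123 and 137 CPM in Insulin (-0.28, adjusted p = 0.00385). Both encode RNA-binding antiviral proteins that act in one complex. PLAAT4, a phospholipase-like protein induced by interferon and retinoids, fell as well (7.01, 7.47 and 8.58 CPM in Viperin + Insulin, 10.3, 11 and 11.5 CPM in Insulin, -0.49, adjusted p = 0.000389) and was picked after its values were seen. All 5 passed 0.05 under each of the 17 alternatives. Over the list the number lower was 4 to 7 when single libraries were left out, the 7 being without Viperin + Insulin replicate 3, and 11 lower with 2 higher in the fit to the 6 libraries alone. The 60 genes summed to 2777 to 2998 CPM in Viperin + Insulin and 2920 to 3144 CPM in Insulin, so these sums overlapped.

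The RefSeq promoters of HERC5 and IFIT3, which fell, are shown because they carry the core of the interferon-stimulated response element, and that of IFIT1 because it carries the same core. Capitals mark each match of GAAANNGAAA on either strand, read here as TTTCNNTTTC, and neighbouring matches may overlap; the windows run from 250 bases before to 50 after the start in GRCh38.p14.
HERC5 promoter (chr4:88456869-88457168, plus strand): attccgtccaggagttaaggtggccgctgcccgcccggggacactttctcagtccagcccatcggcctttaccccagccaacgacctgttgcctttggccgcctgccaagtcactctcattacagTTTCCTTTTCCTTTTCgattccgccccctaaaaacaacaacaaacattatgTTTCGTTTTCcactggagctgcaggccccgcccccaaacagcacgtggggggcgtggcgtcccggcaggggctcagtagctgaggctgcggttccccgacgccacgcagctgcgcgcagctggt
IFIT3 promoter (chr10:89327747-89328046, plus strand): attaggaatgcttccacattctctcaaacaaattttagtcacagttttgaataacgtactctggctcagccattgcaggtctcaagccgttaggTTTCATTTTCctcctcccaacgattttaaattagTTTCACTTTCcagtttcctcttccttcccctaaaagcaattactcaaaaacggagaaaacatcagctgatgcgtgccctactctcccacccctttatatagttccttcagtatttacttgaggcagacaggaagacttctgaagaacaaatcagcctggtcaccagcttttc
IFIT1 promoter (chr10:89392373-89392672, plus strand): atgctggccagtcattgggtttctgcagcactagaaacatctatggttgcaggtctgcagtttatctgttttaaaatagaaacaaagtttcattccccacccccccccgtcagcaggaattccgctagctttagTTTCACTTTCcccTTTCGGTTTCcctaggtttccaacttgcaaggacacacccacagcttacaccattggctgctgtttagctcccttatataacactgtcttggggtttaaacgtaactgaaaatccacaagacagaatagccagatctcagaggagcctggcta
The motif was found in 3.57% of the 35116 promoters of the table, and 4.38% of its 27305 genes held it in at least 1 promoter. Of the 60 interferon-stimulated genes measured, 46 had a promoter there and 30 of those (65.2%) did so. HERC5 had 3 matches, IFIT3 2 and IFIT1 2 in the promoters shown. A further IFIT3 promoter (chr10:89332279-89332578), not shown, also had 2. IFIT2 and OASL, which were called lower as well, had no promoter there. IFIT1, which the test did not call, had 132, 141 and 131 CPM in Viperin + Insulin and 138, 131 and 156 CPM in Insulin (log2 fold change -0.07, adjusted p = 0.659). A match describes these letters only and does not show that a factor binds them.

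Genes that detect viral nucleic acid and pass on the signal were measured in 21 cases, and 2 were lower, MAVS and IRAK1. That is 9.52%, against 0.99% of all genes, with a list median of -0.03. Both encode reported partners of the Viperin protein. MAVS, the mitochondrial adaptor of the RIG-I-like receptors, had 255, 256 and 265 CPM in Viperin + Insulin and 294, 300.1 and 296 CPM in Insulin (-0.20, SE 0.04, adjusted p = 0.00146). IRAK1, a kinase of Toll-like receptor signalling, had 255, 254 and 243 CPM in Viperin + Insulin and 271, 292 and 288 CPM in Insulin (-0.18, adjusted p = 0.00152). Neither pair of groups overlapped. Of the 17 reported partners, MAVS and IRAK1 were the lower ones (11.8%), so both lists share these calls. LSS, lanosterol synthase, was the one partner that rose (0.17, adjusted p = 0.002). LSS lost the call without Viperin + Insulin replicate 1 (0.0511), Insulin replicate 2 (0.0623) or Insulin replicate 3 (0.0537). None of 38 NF-κB factors, cytokines and chemokines passed in edgeR, DESeq2 or limma-voom, where 3 were higher and 2 lower at an unadjusted p under 0.05 in edgeR.

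**Figure D3:**
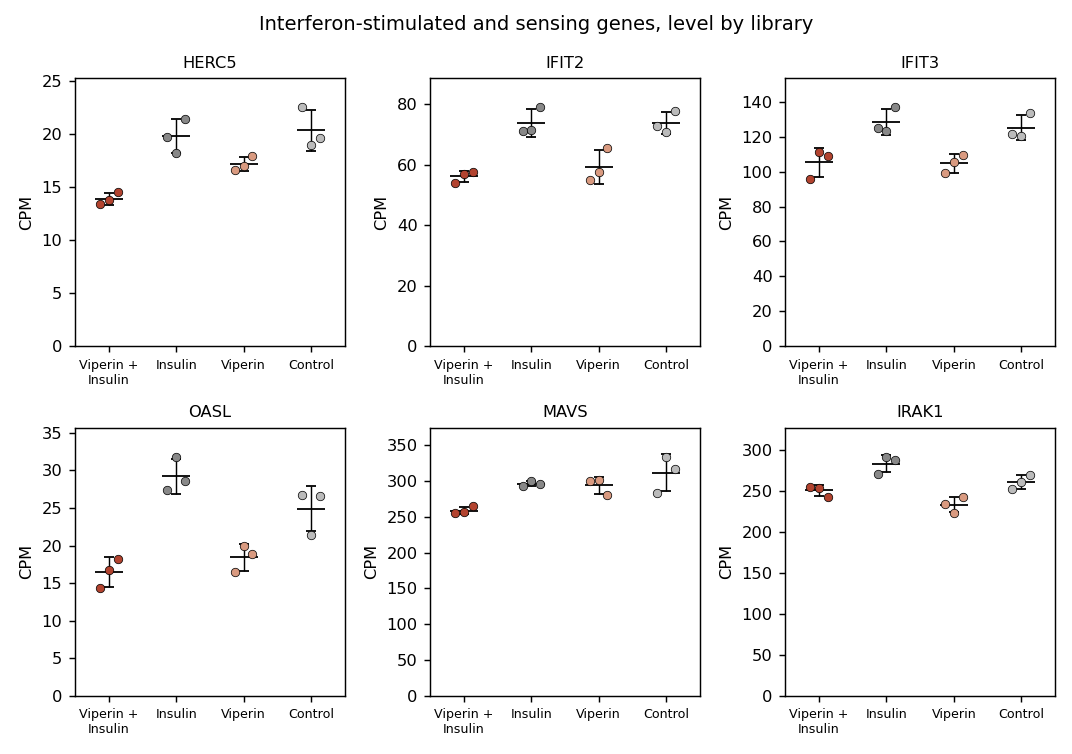
Level in CPM (vertical axis, from 0) of 4 interferon-stimulated genes and of MAVS and IRAK1 in each library of the 4 groups; points are libraries, and the bar and whiskers are the mean and SD of 3. The 3 Viperin + Insulin points lie below the 3 Insulin points in each panel, most widely for OASL.

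Among lists with at least 10 measured members, those with the largest shares of lower members were the proteasome and the genes driven by NRF2, a transcription factor activated by oxidants. Of 29 NRF2-driven and glutathione genes, 8 were lower and 0 higher (27.6%, against 0.99% of all genes, list median -0.10), with 15 lower and 0 higher at an unadjusted p under 0.05. GCLM, the regulatory subunit of the enzyme that starts glutathione synthesis, had 66, 62.3 and 67 CPM in Viperin + Insulin and 71.3, 83.9 and 77.9 CPM in Insulin (-0.25, SE 0.046, adjusted p = 0.000181). FTH1, the ferritin heavy chain that stores iron, had 1930.5, 1918 and 1967 CPM in Viperin + Insulin and 2114, 2462 and 2386 CPM in Insulin (-0.26, adjusted p = 0.000743). Others were FTL, the ferritin light chain, PRDX1, a peroxidase, TXNRD1, which reduces thioredoxin, HMOX1, which breaks down haem, and TKT of the pentose phosphate pathway, with log2 fold changes of -0.24, -0.16, -0.27, -0.34 and -0.21. In all 8 genes Insulin replicate 1 was the lowest of the 3 Insulin libraries, and 7 of the 8 had groups that did not overlap, HMOX1 being the exception. Of the 29 measured, 14 had all Viperin + Insulin libraries below all Insulin libraries and 0 had them above. Among all genes these shares were 9.88% and 11.8%. The count was 5 to 11 when single libraries were left out, 5 without Insulin replicate 2 and 11 without Insulin replicate 1. HMOX1 lost its call without Insulin replicate 2 (0.0847) or 3 (0.06), without Viperin + Insulin replicate 1 (0.104) or 3 (0.109) and in the fit to the 6 libraries alone (0.0536), and PRDX1 without Insulin replicate 2 (0.0519). FTH1 has near-identical pseudogenes and lost the call with unstranded counts (0.113), and TXNRD1 and FTL lost it in the fit to the 6 libraries alone (0.125 and 0.0845).

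Proteasome subunits, which form the particle that degrades ubiquitin-tagged proteins, were lower in 11 of 36 and higher in 0 (30.6%, against 0.99% of all genes, list median -0.10), with 25 lower and 0 higher at an unadjusted p under 0.05. The called changes were small, from -0.13 to -0.21 on the log2 scale, and in each of the 11 the groups did not overlap. Of the 36 measured, 22 had all Viperin + Insulin libraries below all Insulin libraries and 0 had them above. Among all genes these shares were 9.88% and 11.8%. PSMC1, an ATPase of its regulatory cap, had 93.5, 87 and 96.1 CPM in Viperin + Insulin and 103, 112 and 106 CPM in Insulin (-0.21, SE 0.042, adjusted p = 0.000913). The activator PSME4 and the core subunit PSMB7 had log2 fold changes of -0.17 and -0.16, and PSMB7 lost its call without Insulin replicate 2 (0.08) or 3 (0.0668). Insulin replicate 1 was again the lowest Insulin library in all 11. This count was 17 without Insulin replicate 1, 3 without Insulin replicate 2, 2 without Insulin replicate 3, 7 without Viperin + Insulin replicate 2, 19 with the GC and length trend removed, 18 with no filter on low counts and 25 in the fit to the 6 libraries alone.

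Cytosolic and mitochondrial chaperones were lower in 5 of 30 and higher in 0 (16.7%, against 0.99% of all genes), with 14 lower and 0 higher at an unadjusted p under 0.05. In 4 of the 5 the groups did not overlap, and Insulin replicate 1 was the lowest Insulin library in all 5. Of the 30 measured, 14 had all Viperin + Insulin libraries below all Insulin libraries and 1 had them above. Among all genes these shares were 9.88% and 11.8%. HSP90AA1, the inducible HSP90, had 2806, 2721 and 2856 CPM in Viperin + Insulin and 3094, 3348 and 3291 CPM in Insulin (-0.22, SE 0.035, adjusted p = 3.27e-05), and passed 0.05 under every alternative. HSPD1, the mitochondrial HSP60, fell by 0.17 (adjusted p = 0.00171), a call lost without Insulin replicate 2 (0.0512). The count for the list was 1 without Insulin replicate 2, 2 without Insulin replicate 3 or any Viperin + Insulin library, 2 without the robust option and 14 in the fit to the 6 libraries alone. ODC1 and SRM, which catalyse the first and a later step of polyamine synthesis, fell by 0.22 and 0.22 (adjusted p = 0.000197 and 0.000389); these were picked after their values were seen. Other lower genes of small p were QSER1, RAB27B, GFPT2, CCDC85B, CDC42EP3 and PURB, with log2 fold changes between -0.22 and -0.35. RAB27B, a GTPase of vesicle secretion, had 50.3, 45 and 52.7 CPM in Viperin + Insulin and 55.8, 66.1 and 65.1 CPM in Insulin, and GFPT2, the entry enzyme of the hexosamine pathway, had 32.3, 32.7 and 35.1 CPM in Viperin + Insulin and 39.2, 42.3 and 42.7 CPM in Insulin.

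The mitochondrially encoded genes, whose lower share of all pairs is given above, all had negative log2 fold changes (13 genes, median -0.24). In 12 the 3 Viperin + Insulin libraries all lay below the 3 Insulin libraries, as they did for 9.88% of all genes. The number lower at an adjusted p under 0.05 was 1 in edgeR, 5 in DESeq2 and 11 in limma-voom, and 11 were lower and 0 higher at an unadjusted p under 0.05 in edgeR. The gene called by edgeR was MT-CO2, a subunit of cytochrome c oxidase, with 2814, 2905 and 2931 CPM in Viperin + Insulin and 3183, 3639 and 3569 CPM in Insulin (-0.26, adjusted p = 0.0107). That call was lost with the GC and length trend removed (0.133). MTATP6P1, a nuclear pseudogene copy of a mitochondrial gene, had 206, 214 and 222 CPM in Viperin + Insulin and 259, 263 and 265 CPM in Insulin (adjusted p = 1.58e-07). The copies are nearly identical, and pairs that aligned to both were not counted. Whether pairs counted on MTATP6P1 came from MT-ATP6 was not tested. The nuclear-encoded subunits of the respiratory chain had 0 of 41 called in edgeR, DESeq2 or limma-voom, with 1 higher and 3 lower at an unadjusted p under 0.05. Cytosolic ribosomal protein genes had 3 of 76 lower, RPL8, RPS2 and RPL27A, in edgeR (list median -0.06), 6 in DESeq2 and 7 in limma-voom, with 30 lower and 1 higher at an unadjusted p under 0.05 in edgeR. Each of the 3 named lost the call when Insulin replicate 2 was left out (0.217, 0.15 and 0.185), RPS2 and RPL27A also without Insulin replicate 3 (0.0649 and 0.141) and RPL27A without Viperin + Insulin replicate 2 (0.17).

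Receptors for insulin and its relatives were higher in the Viperin + Insulin cells. IGF1R, the IGF-1 receptor, had 95, 97.8 and 98.4 CPM in Viperin + Insulin and 82, 79.8 and 83.3 CPM in Insulin (0.25, SE 0.041, adjusted p = 4.6e-05). It was higher in vehicle too, with 119, 111 and 112 CPM in Viperin and 106, 97.4 and 95.7 CPM in Control (0.19, adjusted p = 0.00269). INSR, the insulin receptor, had 23.5, 23.7 and 21.2 CPM in Viperin + Insulin and 18.9, 17.9 and 18.3 CPM in Insulin (0.31, adjusted p = 0.00298), and IGF2R, the mannose 6-phosphate receptor that also clears IGF-2, rose by 0.19 (0.000788). Groups did not overlap for any of the 3. These 3 were the higher members of the 42 PI3K, AKT and mTOR pathway genes (7.14%, against 2.09% of all genes), whose list median was -0.01. IGFBP6, an IGF-binding protein, was the lower one (2.38%, against 0.99% of all genes), at -0.23 (adjusted p = 0.00554). Its call was lost without Insulin replicate 2 (0.104) or Viperin + Insulin replicate 2 (0.0574). Of 31 FOXO and quiescence genes, IGF1R and INSR were higher in edgeR and none was lower, while DESeq2 and limma-voom each called 2 higher and 1 lower; at an unadjusted p under 0.05, 8 were higher and 1 lower in edgeR. NRG1 and EPGN, ligands of the ERBB receptors, fell by 0.23 (adjusted p = 0.00152) and 0.81 (0.0176), the second at a low level of 0.920, 1.03 and 1.40 CPM in Viperin + Insulin and 1.97, 2.37 and 1.73 CPM in Insulin, and EPGN lost the call in DESeq2 (0.0615) and without Insulin replicate 2 (0.19), Viperin + Insulin replicate 1 (0.141) or Viperin + Insulin replicate 2 (0.0893). DUSP1, a phosphatase that ends MAP kinase signals, rose by 0.28 (adjusted p = 0.000355).

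Of 38 glycolysis and HIF target genes, 4 were higher and 4 lower (10.5% each way, against 2.09% higher and 0.99% lower of all genes). VEGFA, P4HA2, EPAS1 and KDM3A were higher, and the glycolytic enzymes GAPDH, PKM, GPI and LDHA were lower. GAPDH had 4549, 4618 and 4616 CPM in Viperin + Insulin and 4883, 5272 and 5157 CPM in Insulin (-0.15, adjusted p = 0.00304), and VEGFA, the angiogenic growth factor, had 61.5, 59.9 and 66.6 CPM in Viperin + Insulin and 52.9, 53 and 52.3 CPM in Insulin (0.25, adjusted p = 0.000654). In cholesterol synthesis and transport 3 of 29 rose (10.3%), among them LSS and STARD4, a carrier of sterols (0.17, adjusted p = 0.00354, lost without Insulin replicate 2 at 0.0576, Insulin replicate 3 at 0.0556 or Viperin + Insulin replicate 1 at 0.054). Fatty acid genes had 2 higher and 2 lower of 29 (6.9% each way). Of 23 serine, glycine and one-carbon genes 3 were higher (13%), MTR and MTHFD1L among them. Of 34 genes of endoplasmic reticulum chaperones and the unfolded protein response, 1 rose, the sensor kinase EIF2AK3 (0.19, adjusted p = 0.00709). Among 21 ATF4 targets 3 were higher (14.3%), NUPR1, ATF4 and VLDLR, and 1 was lower (4.76%), ATF5, with a list median of -0.01. NUPR1, a stress-induced chromatin protein, had the smallest p (0.36, adjusted p = 0.000134). ATF4 lost its call without Insulin replicate 3 (0.14) or Viperin + Insulin replicate 1 (0.169) or 3 (0.101).

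Genes of the nuclear envelope and of splicing were also among those that rose. The LINC complex proteins SUN1 and SUN2, which tether the nucleus to the cytoskeleton, both passed 0.001. SUN1 had 145, 144 and 147 CPM in Viperin + Insulin and 121, 126 and 121 CPM in Insulin (0.24, adjusted p = 2.56e-05). SUN2 had 82, 82.5 and 81 CPM in Viperin + Insulin and 69.3, 70.1 and 72.1 CPM in Insulin (0.22, adjusted p = 0.000654). With the nuclear pore protein NUP210 and TOR1AIP2 they were 4 of 20 nuclear envelope genes higher (20.0%), while LMNA, which encodes lamins A and C, was lower (-0.18, adjusted p = 0.00567). TOR1AIP2 lost its call without Viperin + Insulin replicate 3 (0.0751) and LMNA without Insulin replicate 2 (0.0976) or Viperin + Insulin replicate 1 (0.0529). The list median was 0.01, close to that of all genes. Among 34 splicing regulators 6 were higher and 1 lower (17.6% and 2.94%, against 2.09% and 0.99% of all genes). DDX17, an RNA helicase, had 383, 369.5 and 389 CPM in Viperin + Insulin and 324, 305 and 309 CPM in Insulin (0.28, SE 0.035, adjusted p = 8.6e-08), and RBM39, a splicing factor, rose by 0.20. The kinases CLK1, CLK2 and CLK3 and SRSF6 completed the 6, and the count was 2 without Insulin replicate 2 or Viperin + Insulin replicate 1 and 3 without Insulin replicate 3 or Viperin + Insulin replicate 3. CLK1 lost its call without Insulin replicate 2 (0.0593) or Viperin + Insulin replicate 1 (0.161). Of 57 cell cycle and mitosis genes 3 were lower (5.26%), CDT1, RRM2 and CCND1. The remaining lists had calls that were few in number. Of ribosome biogenesis genes 2 of 43 (4.65%) were lower, and of aminoacyl-tRNA synthetases 1 of 23 (4.35%). Of actin genes 1 of 37 (2.7%) was higher. Calls went both ways in amino acid transporters (1 higher and 2 lower of 26, 3.85% and 7.69%) and microtubule-associated proteins (1 and 2 of 28, 3.57% and 7.14%). They also did in ERK targets (1 and 2 of 32, 3.1% and 6.25%) and YAP/TAZ targets (2 and 1 of 24, 8.33% and 4.17%). The shares of all genes were 2.09% higher and 0.99% lower.

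**Figure D4:**
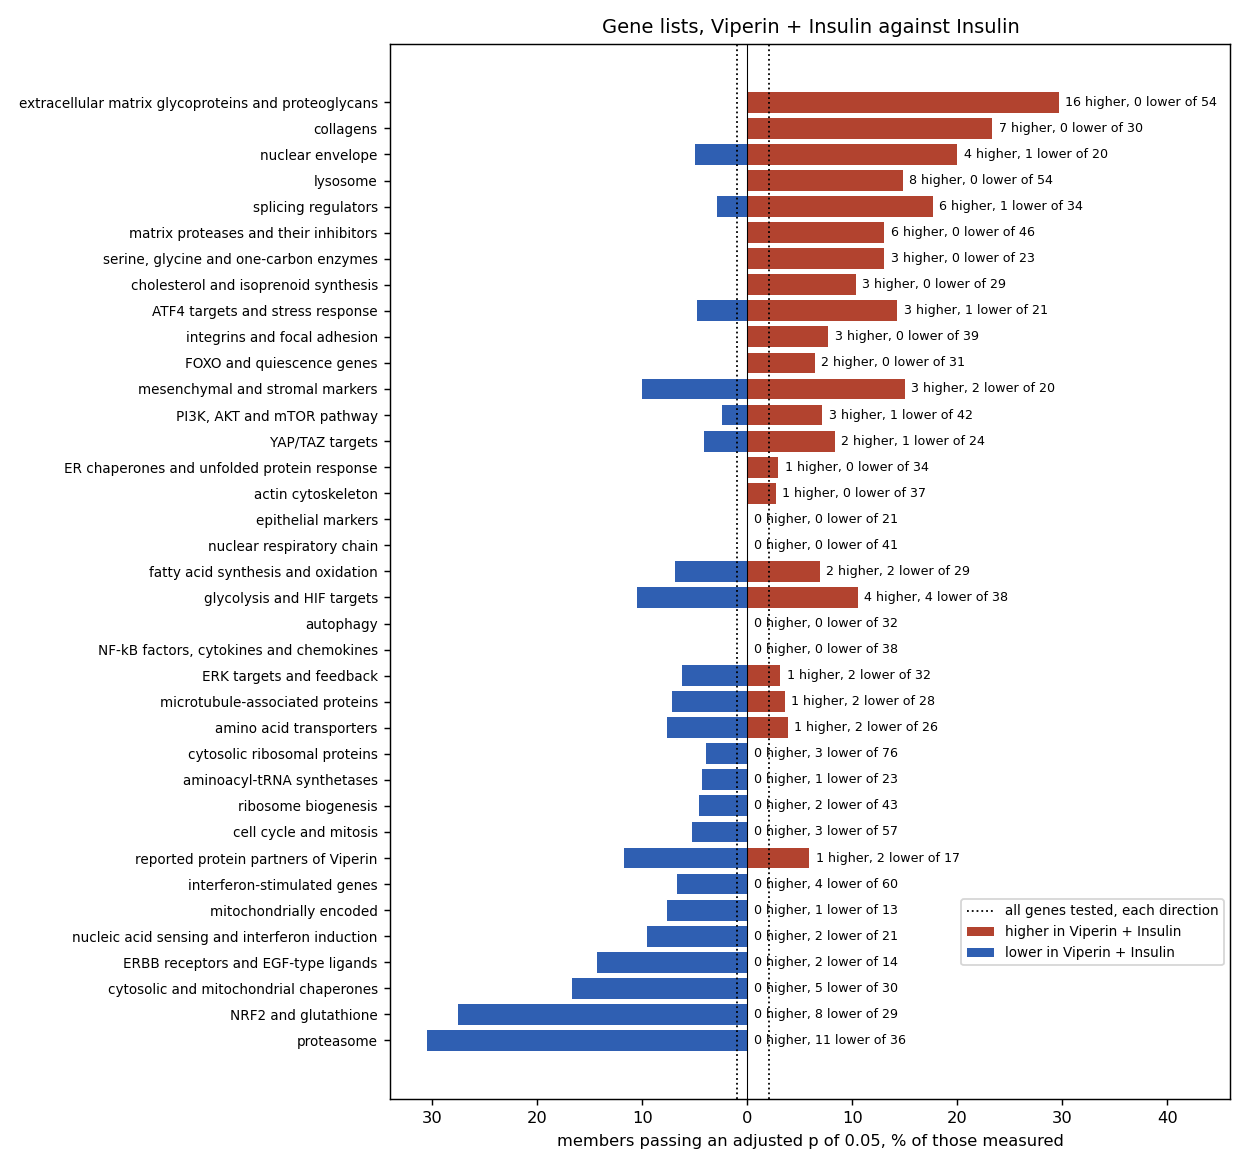
Share of each list's measured members, in percent, with an adjusted p under 0.05 between Viperin + Insulin and Insulin, higher to the right of 0 and lower to the left, for lists with at least 10 measured members; dotted lines mark the shares among all genes tested, 2.09% higher and 0.99% lower. Matrix glycoproteins (16 of 54) and collagens (7 of 30) reach furthest right, and the proteasome (11 of 36) and NRF2 genes (8 of 29) furthest left.

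The effect of the plasmid was set beside that in vehicle-treated cells, Viperin against Control, which shares no library with the comparison under insulin. There 528 genes passed 0.05 (2.29% of those tested), and 70 passed 0.001. Of the 109 genes called under insulin, 106 had the same sign in vehicle, 60 passed 0.05 there and 24 passed 0.001. The median log2 fold change of the 86 higher genes was 0.26 with insulin and 0.19 in vehicle, and that of the 23 lower genes was -0.26 with insulin and -0.15 in vehicle. The 109 were picked on their values with insulin, and 94 of them were larger in size with insulin, while of the 70 genes picked on their values in vehicle 61 were larger in vehicle. OASL had 16.4, 19.9 and 18.9 CPM in Viperin and 26.7, 21.4 and 26.6 CPM in Control (-0.44, adjusted p = 0.0361), and IFIT2 had 54.7, 57.4 and 65.5 CPM in Viperin and 72.6, 70.9 and 77.7 CPM in Control (-0.32, 0.000249). HERC5 did not pass in vehicle (-0.24, 0.0565), nor did PLAAT4 (-0.03, 0.934). Over the 60 interferon-stimulated genes, 2 were higher and 3 lower in vehicle at an adjusted p under 0.05, with a list median of -0.02. Among the lists, 16 matrix glycoproteins were higher with insulin and 13 in vehicle, 11 proteasome genes were lower in each, and 8 NRF2 genes were lower with insulin against 1 in vehicle. Other lists had more calls in vehicle: 3 cytosolic ribosomal protein genes were lower with insulin against 13 in vehicle, 8 lysosomal genes were higher with insulin against 11 in vehicle, and 1 mitochondrially encoded gene was lower with insulin against 3 in vehicle. Whether these counts differ was not tested.

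Whether the effect of Viperin differed with and without insulin was tested directly as the difference between the 2 contrasts. No gene passed 0.05 in edgeR, where 1297 genes had an unadjusted p under 0.05, and none passed in DESeq2 or limma-voom. The smallest adjusted p was 0.0532, shared by several genes, of which TNC, VEGFA and NADK2 were also called under insulin with the opposite sign in vehicle. TNC, the matrix protein tenascin C, had 189.6, 176 and 185 CPM in Viperin + Insulin and 173, 156 and 151 CPM in Insulin (0.20, adjusted p = 0.000947), against 156, 155 and 158 CPM in Viperin and 172, 164 and 163 CPM in Control (-0.09, adjusted p = 0.303). VEGFA, given above with insulin, had 46.3, 44.3 and 49.1 CPM in Viperin and 52.7, 49.6 and 44.7 CPM in Control (-0.07, adjusted p = 0.592). NADK2, the mitochondrial NAD kinase, had 77.8, 74.6 and 78.1 CPM in Viperin + Insulin and 64.7, 65.2 and 65.2 CPM in Insulin (0.24), against 65.3, 61.8 and 60.6 CPM in Viperin and 66.7, 64.4 and 62.8 CPM in Control (-0.04). BDNF, a neurotrophin, followed the same course, at 0.21 with insulin and -0.09 in vehicle (adjusted p of the difference 0.0532), its call with insulin being lost without Viperin + Insulin replicate 1 (0.054). NADK2 and BDNF were picked after their values were seen. TNC lost its call with insulin when Insulin replicate 3 was left out (0.0591). The number of genes whose effect differed at 0.05 was 23 without Insulin replicate 1 and 5 without Viperin + Insulin replicate 2.

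**Figure D5:**
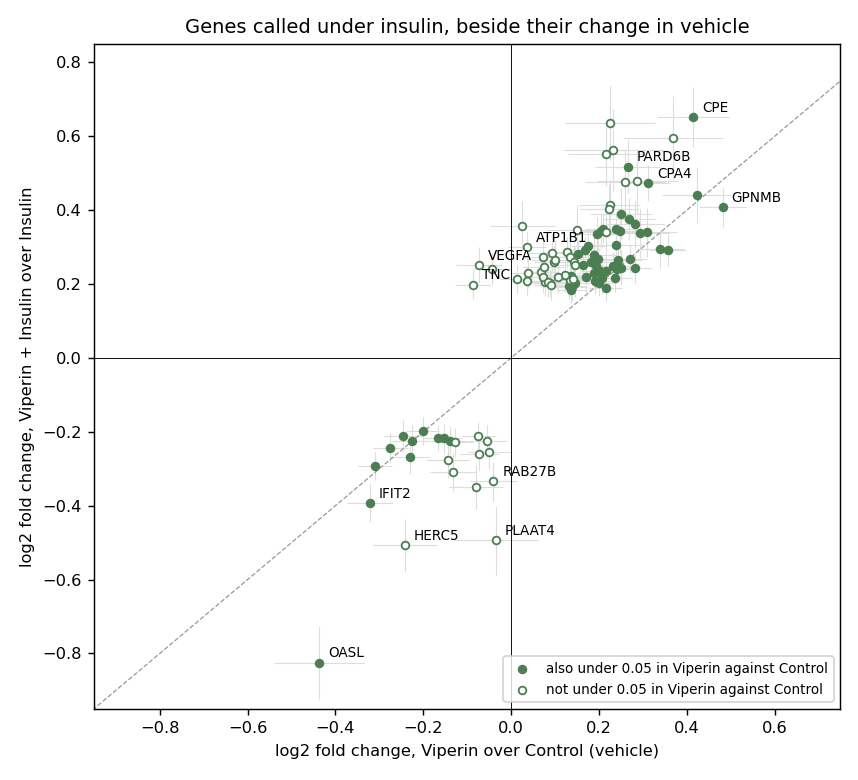
Log2 fold change of Viperin + Insulin over Insulin (vertical) against that of Viperin over Control (horizontal) for the 109 genes called under insulin less RSAD2 and HBB, which lie beyond the axes. Whiskers are the SE derived from the F statistic of the test, and the dashed line marks equal changes. Filled points passed 0.05 in vehicle as well, and TNC and VEGFA are 2 of the 3 genes on the opposite side of 0 in vehicle.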

How the data were processed

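Poly(A) RNA from 12 cultures (4 groups of 3) was sequenced as paired reads. The authors used Trim Galore and cutadapt for trimming, FastQC for read quality and STAR for alignment to hg38, and deposited STAR's gene counts for each library. Tool versions were not given, and the gene annotation is named as a GENCODE release that carries a mouse number although the identifiers are human. The deposited counts are whole numbers with no normalization, in an unstranded column and 2 stranded columns. The reverse-strand column, with 94.1% to 94.3% of the stranded assignments in each library, was analysed, and the leading summary lines were left out of library sizes. Names came from GENCODE release 44 for 60357 of 60617 identifiers.

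The 23041 genes averaging 1 count or more over the libraries were fitted in edgeR 4.0.16 (R 4.3.3) by the robust quasi-likelihood test with TMM scaling, 1 mean for each of the 4 groups over all 12 libraries and a prior count of 2, with Benjamini-Hochberg adjustment over all genes tested. The calling threshold on the adjusted p was 0.001 for genes and 0.05 for list members. The adjusted p-values over a list alone were not computed. The SE printed with a log2 fold change is its absolute value divided by the square root of the quasi-likelihood F statistic. DESeq2 1.42.0, limma-voom (limma 3.58.1), other filters and scalings, unstranded counts, a replicate block, the 6 compared libraries alone and the removal of each of the 6 in turn were the alternatives. The scripts were tested on simulated data. The libraries are 3 experiments per condition, and counting precision is set by 25979022 to 46889002 assigned pairs per library.

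The comparison and the gene lists were chosen with earlier results of these data known. Named genes were the 15 higher and 15 lower genes of smallest p with groups that did not overlap and an adjusted p under 0.05, the 5 largest changes each way among those with a mean of at least 50 counts, RSAD2, CMPK2 and HBB, and up to 4 members of smallest p in each list. Genes named only as called members of a list, and NADK2, ODC1, SRM, PLAAT4, TNC, BDNF, FBLN2, SPARC, COL1A2, IFIT1, KRT8, KRT19 and EPCAM, were chosen after their values were seen. Some genes that the rule picks are not reported here.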

Additional observations from a re-analysis of the deposited data

How the results depend on the processing

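RSAD2 passed 0.001 under every alternative run, with a log2 fold change of 6.83 to 7.22 when single libraries were left out. All 109 called genes kept their sign in each alternative. The number called at 0.001 was 59 with edgeR's stricter filter, 260 with no filter, 587 with the 6 libraries alone and 30 to 136 when single libraries were left out; at 0.05 it was 1793 with the 6 libraries alone and 278 to 796 when single libraries were left out. Of 1232 list members, 140 were called, against 336 with the 6 libraries alone and 68 to 168 when single libraries were left out. Genes whose Viperin effect differed with and without insulin, 0 as designed, numbered 4 at 0.001 with no filter and 0 to 5 when single libraries were left out, and at 0.05 they numbered 2 without the robust option, 12 with the GC and length trend removed, 37 with no filter, 7 with unstranded counts and 0 to 23 when single libraries were left out. The cause of these moves was not tested.

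The deviations of same-numbered libraries from their group means correlated at 0.058, 0.020 and 0.0058 over 15702 genes. Those of differently numbered libraries correlated at -0.042 to 0.024. These values do not settle whether same-numbered libraries came from the same experiment. With the replicate number as a block 157 genes passed 0.001, 709 passed 0.05 and 17 differed at 0.05 between the 2 contrasts. Of the named genes, 106 besides RSAD2 were followed over the 17 alternatives. None reversed its direction where it had a call in the fit as designed or in the alternative. The call was lost in 75 cases and unchanged in 1727. The sign of genes without a call was not followed. Depth limits the low genes: HBD rests on 1 to 17 counts per library.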
